A study of Homo sapiens with 15 samples.

Results

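Cells of the human lung line A549 that had been treated with interleukin 13 (IL-13) for 24 h were compared with untreated A549 cells harvested after the same 24 h. The members were the 6 arrays whose titles carry these 2 groups at 24 h, 3 with IL-13 and 3 without, out of 15 arrays in the series. The other 9 arrays hold untreated A549 cells at 0 h and cells that had IL-13 for 4 h or 12 h, and they entered here through the shared estimate of the spread. Total RNA was measured on the Affymetrix human hgu133a array. All groups are the same line, which the labels call bronchial and which is known as a line from a lung adenocarcinoma with features of alveolar type II cells. The sources used here do not give the dose of IL-13, the medium or any vehicle. The labels do not say whether arrays a, b and c of a group came from separate cultures, and a p-value here weighs a difference only against the variation among the arrays at hand, part or all of which may be technical.

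IL-13 is a cytokine of type 2 inflammation. It binds IL13RA1, which pairs with IL4R, and the kinases JAK1, JAK2 and TYK2 on these chains phosphorylate STAT6, which enters the nucleus and binds DNA. IL13RA2 is a decoy chain, and proteins of the SOCS family, CISH among them, are induced by STAT proteins and damp the signal. In airway epithelium the cytokine is known for mucous cell change, eotaxin production and altered barrier function.

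Between arrays of one group the correlation was 0.970 to 0.981, and between IL-13 and control arrays it was 0.947 to 0.968. The median deposited signal was 66.3 to 72.4 on the control arrays and 56.7 to 64.4 on the IL-13 arrays, so the arrays were quantile normalized before testing. The ratio of 3' to 5' signal, a sign of RNA integrity, was 1.11 to 1.24 for beta-actin in control and 1.09 to 1.23 with IL-13. For GAPDH it was 0.875 to 0.918 and 0.854 to 0.900. Of the markers set for the line, 9 of 13 measured genes were bright enough to test, the keratin genes KRT7, KRT8 and KRT18 among them, while the surfactant gene SFTPB, the lung factor NKX2-1 and the adhesion gene EPCAM were not. Summed over the list, their deposited signal was 32374 to 37611 with IL-13 and 34213 to 37157 in control. The same sum was 331 to 383 with IL-13 and 399 to 504 in control for 10 leukocyte genes, 460 to 531 and 620 to 664 for 10 fibroblast genes, and 101 to 146 and 126 to 172 for 8 endothelial genes. None of these genes was at 0, and of the 6 that were bright enough to test COL1A1 alone passed the test.

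The question was which genes differ between cells with and without IL-13 once time in culture is held the same. Of 6884 genes tested, limma called 482, or 7%, at an adjusted p under 0.05. The calls were 271 genes higher with IL-13 (3.94% of those tested) and 211 lower (3.07%). Most calls were small: the median size was 0.52 on the log2 scale, or 1.44-fold, 307 were under 1.5-fold, and 27 (0.392% of genes tested) reached 2-fold, 21 of them higher and 6 lower. The 3 values of one group all lay above the 3 of the other for 468 of the called genes and for 1807 of all tested genes (26.2%). Differences given below are IL-13 minus control on the log2(signal + pseudocount) scale ± SE, with 3 arrays per group, and adjusted p-values are those of limma with the Benjamini-Hochberg method over the 6884 genes.

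The number and the split of calls rested on the arrays and on the scaling. With all other groups in the model the count was 282 without IL-13 array a, 194 without IL-13 array c, 253 without control array a and 225 without control array c. Of the calls, 56.2% were higher after quantile normalization, 59.7% with the values scaled as deposited, 73.5% when each array was divided by the median of its tested genes and 95.5% with scaling on the median of all probe sets. That last scaling moved the median of all tested genes from 0.0016 to 0.17, and 285 genes were called under all of these scalings, 233 higher and 52 lower. With every probe set as its own test, 711 of 11107 (6.4%) were called. A smaller set of 97 genes, 77 higher and 20 lower, kept its call in each of the 19 other settings that gave a value, and most genes described in full here come from it.

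**Figure D1:**
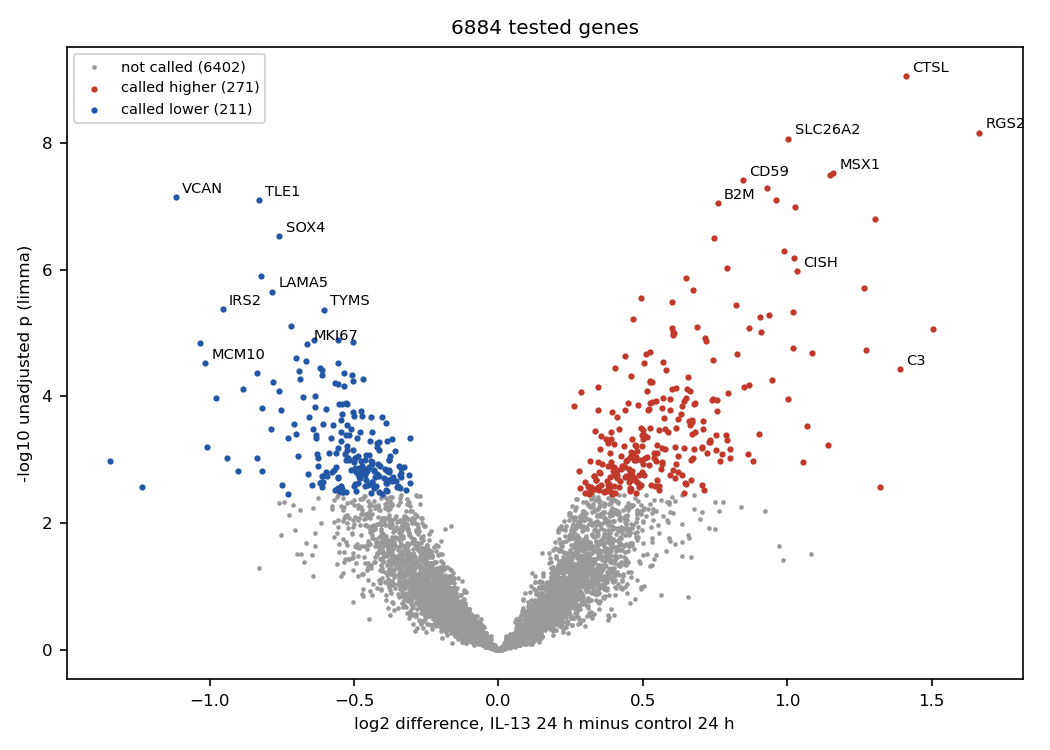
Difference between IL-13 24 h and control 24 h on the log2 scale (horizontal) against -log10 of limma's unadjusted p (vertical) for 6884 tested genes, with 271 called higher in red, 211 called lower in blue and the others in grey. RGS2 stood farthest to the right of the labelled genes at 1.67 and VCAN farthest to the left at -1.12.

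Of the signal pathway itself, the feedback gene moved and the receptor chains, kinases and STAT genes mostly did not pass the test. CISH, the STAT-induced inhibitor, had signals of 224, 238 and 214 on IL-13 arrays a, b and c and of 119, 97.9 and 106 on the control arrays. Each IL-13 array lay above each control array. CISH rose by 1.03 ± 0.14 (2.05-fold, adjusted p = 0.000381) and kept its call in every other setting with a value. It was the 1 called gene of 12 tested SOCS and feedback genes (8.33%). The STAT-responsive repressor BCL6 stood at 0.50 ± 0.16 (adjusted p = 0.0649) and the kinase PIM1 at 0.41 ± 0.13 (adjusted p = 0.0600). SOCS2 stood at -0.20 ± 0.17 and SOCS3 at 0.11 ± 0.13.

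Of 8 tested receptor, JAK and STAT genes, 1 passed. This was JAK3, the kinase that works with the common gamma chain in blood cells, with signals of 179, 211 and 143 with IL-13 and 289, 237 and 295 in control. The groups did not overlap, and JAK3 fell by 0.56 ± 0.14 (adjusted p = 0.0224). The call was lost without IL-13 array a (-0.57) or c (-0.44) and without control array a (-0.53) or c (-0.50), and with scaling on all probe sets (-0.37), and its other probe sets stood at -0.03 and 0.04. The receptor chain IL13RA1 stood at 0.13 ± 0.13, JAK1 at 0.14 ± 0.08, TYK2 at 0.15 ± 0.28, STAT3 at 0.09 ± 0.10 and STAT6 at 0.03 ± 0.11, and none of these passed. IL4R and IL13RA2 were below the filter on dim genes, as were JAK2 and IL2RG, the common gamma chain, with mean signals of 85.6 and 47.6 with IL-13 and 61.5 and 86.1 in control.

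The promoter of CISH is shown because CISH is the feedback gene that rose and because the letters that STAT proteins bind recur in it. The motif TTCNNNGAA, and the form of it with 1 more N between its arms, which STAT6 also binds, were searched in the 250 bases before each RefSeq start on the assembly GRCh38.p14. Each motif reads the same on both strands, and a promoter with both was counted once under either. The window of CISH, at chr3:50611775-50612024 on the minus strand, is printed 5′ to 3′ with the matches to TTCNNNGAA in capitals, and below it stand the 59-base stretches around the single match in CD59 (chr11:33736574-33736632, minus strand), BCL2A1 (chr15:79971331-79971389, minus strand) and IRF9 (chr14:24161177-24161235, plus strand), which were also called higher.
CISH: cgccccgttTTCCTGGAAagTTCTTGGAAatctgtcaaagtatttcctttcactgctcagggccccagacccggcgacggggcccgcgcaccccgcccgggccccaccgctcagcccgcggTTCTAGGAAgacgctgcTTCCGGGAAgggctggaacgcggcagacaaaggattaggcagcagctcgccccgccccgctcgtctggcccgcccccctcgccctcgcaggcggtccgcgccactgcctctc
CD59: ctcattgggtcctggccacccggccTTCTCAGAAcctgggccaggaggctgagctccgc
BCL2A1: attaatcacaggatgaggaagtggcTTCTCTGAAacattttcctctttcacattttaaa
IRF9: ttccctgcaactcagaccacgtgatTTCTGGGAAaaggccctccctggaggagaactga

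CISH held 4 matches, beginning 241, 230, 129 and 112 bases before the start. Of 27303 RefSeq promoters, 4 (0.0147%) held 4 or more. Over all genes the motifs were about as frequent in the called genes as elsewhere: either motif was in 22 of 226 matched promoters of genes called higher (9.73%), 18 of 174 of genes called lower (10.3%) and 541 of 5744 of tested genes (9.42%). Among all RefSeq promoters the share was 11.6%. Named genes called lower held matches too, RELA, MT2A and SLC3A2 to TTCNNNGAA and MKI67 to the longer form. PSMA2, called higher, held a match that is not printed. A match is only a run of letters in this window and no measurement of binding. BCL2A1, which guards cells against apoptosis, was at 65.2, 80.9 and 93.8 with IL-13 and 33.8, 63.8 and 39.2 in control. It rose by 0.79 ± 0.18 (adjusted p = 0.0152) and lost its call without IL-13 array c (0.68) or control array a (0.66) or c (0.70). Of 17 tested apoptosis genes 2 rose (11.8%) and none fell. PMAIP1, which promotes apoptosis, was also called higher, by 0.58, with its other probe set at 0.78. It lost its call without IL-13 array a (0.55) or c (0.53) or control array c (0.43).

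The largest rises were in genes of several functions. RGS2, which speeds the shut-off of G protein signals, had signals of 364, 412 and 382 with IL-13 and 127, 153 and 77.9 in control. All IL-13 arrays were far above all control arrays, with a rise of 1.67 ± 0.16 (3.17-fold, adjusted p = 1.99e-05). It was the 1 called gene of 22 tested RGS and second-messenger regulators. Cathepsin L (CTSL), a protease of the lysosome, was at 2109, 1969 and 2469.9 with IL-13 and at 699, 743 and 884 in control. The groups were well apart, and CTSL rose by 1.41 ± 0.12 (2.66-fold, adjusted p = 6.09e-06). The rise was not shared by the lysosome list: of 35 tested members CTSL and the acid lipase LIPA (0.32 ± 0.09) rose, the peptidase TPP1 (-0.45 ± 0.11) fell and the median was -0.0029. LIPA lost its call without any 1 of 5 arrays, namely IL-13 array a (0.35), b (0.33) or c (0.26) and control array a (0.28) or c (0.31), and TPP1 without IL-13 array b (-0.38) or control array c (-0.43) and with scaling on all probe sets (-0.26).

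MSX1, a homeobox factor, had signals of 216, 224 and 236 with IL-13 and 82.8, 109.9 and 101 in control. No array of one group reached the other, and MSX1 rose by 1.16 ± 0.13 (2.23-fold, adjusted p = 4.42e-05). Hexokinase 1 (HK1), the first enzyme of glycolysis, was at 554, 486 and 475 with IL-13 and 181, 246 and 234 in control. It rose by 1.15 ± 0.13 (2.22-fold, adjusted p = 4.42e-05), again with no overlap. HK1 was the 1 gene of 23 tested glycolysis genes that rose, beside a fall of the regulatory enzyme PFKFB3 (-0.57 ± 0.17). PFKFB3 lost its call without IL-13 array a (-0.59) or b (-0.38) or control array a (-0.49) or b (-0.49) and under each other scaling (-0.51 to -0.29). The list had its median at -0.03 and at 0.02 with the values scaled as deposited, so no direction can be given for it.

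Several other rises kept their calls in every setting. MMD, a membrane protein first described in maturing macrophages and named here after its values were seen, was at 902, 839 and 869.5 with IL-13 and 352, 475 and 455 in control. It rose by 0.96 ± 0.11 (1.95-fold, adjusted p = 5.62e-05). MREG, which acts in organelle transport, was at 241, 173 and 214 with IL-13 and 102, 101 and 94.1 in control, a rise of 1.03 ± 0.12. The groups did not overlap for either gene. GADD45A, a growth arrest and DNA damage gene also named after its values were seen, was at 614, 587 and 517 with IL-13 and 304, 260.2 and 307 in control (rise of 0.91 ± 0.14, adjusted p = 0.00122). Its mean was 363 ± 73.4 at 0 h and 285 ± 31.6 and 270.2 ± 48.2 after 4 h and 12 h of IL-13 (SD, n = 3 arrays each), so the high level stood at 24 h with IL-13 only among the group means. MALT1, a scaffold of NF-kB signalling that was named in the same way, rose by 0.91 ± 0.15 (1.88-fold), from 118, 103 and 84.5 in control to 215, 161 and 202.

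**Figure D2:**
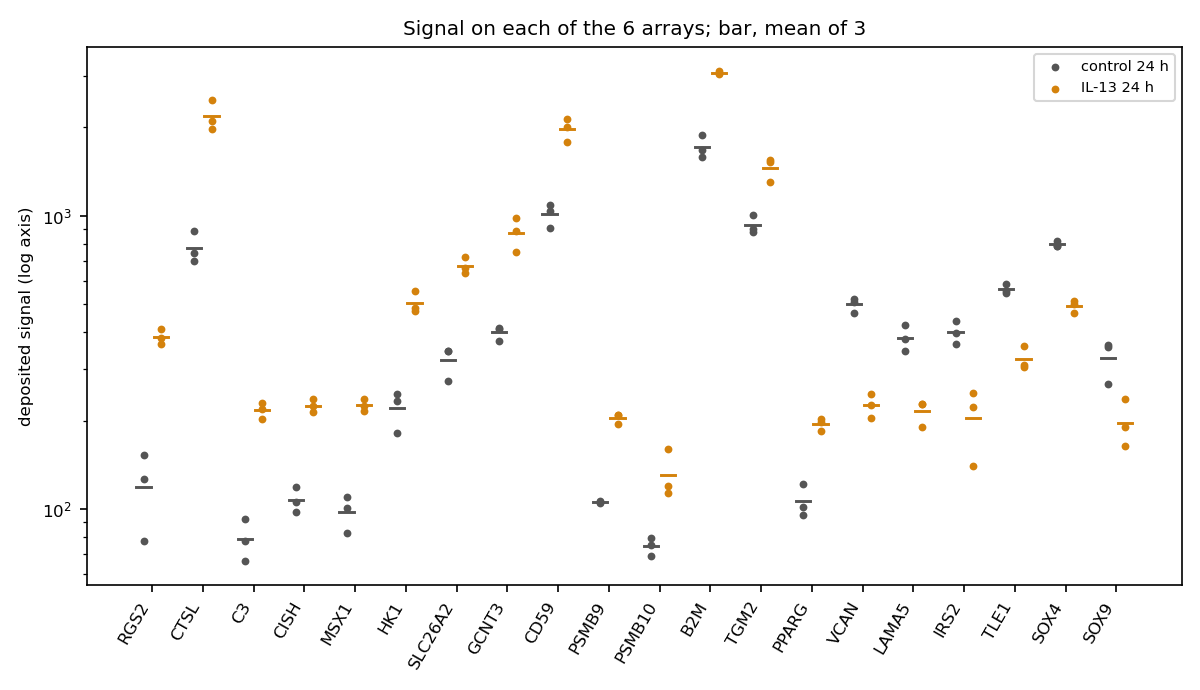
Deposited signal on each of the 6 arrays for 20 named genes (log axis), IL-13 24 h in orange and control 24 h in grey, with a bar at the mean of 3 arrays. For each gene shown the 2 groups did not overlap, with CTSL at 1969 or more with IL-13 and at most 884 in control.

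GCNT3 and SLC26A2, with roles in the building and sulfation of sugar chains, were among the 20 largest rises. GCNT3, which branches the O-linked glycans of mucins, was at 980.3, 751 and 884 with IL-13 and 411, 375 and 415 in control. SLC26A2, which carries sulfate into the cell, was at 724, 636 and 662 with IL-13 and 345, 346 and 273 in control. Both groups were well separated in each case: GCNT3 rose by 1.03 ± 0.14 (2.04-fold, adjusted p = 0.000264) and SLC26A2 rose 2.01-fold (SE 0.10 on the log2 scale, adjusted p = 1.99e-05). Further genes of such roles were chosen after their values were seen, belong to no list, and support nothing by their number. UAP1, which makes the donor sugar UDP-N-acetylglucosamine, rose by 0.82 ± 0.13 (174, 162 and 201 against 103, 97.9 and 100.1). B4GALT4, a galactosyltransferase, rose by 0.95 ± 0.18, with its other probe set at 0.11. PAPSS2, which makes the sulfate donor for sulfotransferases, rose by 0.50 ± 0.12, and the dermatan sulfate epimerase DSE by 0.60 ± 0.13. Both lost their calls without IL-13 array c, at 0.42 for PAPSS2 and 0.53 for DSE. The heparan sulfate polymerase EXT1 rose by 0.50 ± 0.11, with its other probe set at -0.18 and its call lost with the mean of the probe sets (0.16), without IL-13 array a (0.44) or control array c (0.42).

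Complement genes made up the list with the largest share of rises. Complement is a cascade of plasma proteins that mark and lyse cells, and epithelial cells both secrete its components and carry membrane proteins that stop it. Of 10 tested members 4 rose (40%, beside 3.94% of all tested genes) and none fell, and the median of the list was 0.20, beside 0.0016 for all tested genes. C3, the component on which the cascade turns, was at 219, 203 and 229.7 with IL-13 and 77.7, 92.1 and 66.7 in control. It rose by 1.39 ± 0.26 (2.62-fold, adjusted p = 0.00382) with no overlap of the groups. CD59, which blocks the membrane attack complex, was at 2129, 1777 and 2009.9 with IL-13 and 908, 1040.5 and 1089 in control. The rise of CD59 was 0.85 ± 0.09 (1.80-fold, adjusted p = 4.42e-05), and its 3 other probe sets stood at 0.81 to 1.29. CD55, which speeds the decay of the C3 convertase, was at 229, 234 and 202 with IL-13 and 146, 126 and 178 in control, a rise of 0.57 ± 0.12 (adjusted p = 0.0105). The protease C1S rose by 0.48 ± 0.13 (adjusted p = 0.0372) and lost its call without IL-13 array a (0.49) or c (0.40) or control array a (0.45), b (0.48) or c (0.50). Its partner C1R stood at 0.13 ± 0.13 and the third membrane regulator, CD46, at 0.27 ± 0.14, and neither passed.

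Antigen processing by MHC class I moved in part. Proteasomes cut proteins to peptides, and in the immunoproteasome PSMB8, PSMB9 and PSMB10 replace the standard catalytic subunits. PSMB9 was at 209, 209 and 195 with IL-13 and at 106, 105 and 105 in control, and the groups lay far apart. It rose by 0.93 ± 0.10 (1.90-fold, adjusted p = 5.08e-05). PSMB10 was at 161, 113 and 119 with IL-13 and 79.8, 75.6 and 69.3 in control, without overlap, and rose by 0.80 ± 0.16 (1.74-fold, adjusted p = 0.00619). B2M, the light chain of class I molecules, was at 3045, 3063 and 3101 with IL-13 and 1587, 1885 and 1679 in control. It rose by 0.76 ± 0.09 (1.69-fold, adjusted p = 5.69e-05), with its other probe set at 0.37. These 3 were the called genes of 14 tested members (21.4%), and the median of the list was 0.15. The heavy chain genes HLA-B (0.07 ± 0.11) and HLA-E (0.25 ± 0.19) and the peptide transporter TAP1 (0.36 ± 0.18) did not pass, and PSMB8 was below the filter, with signals of 57.0, 15.1 and 49.6 with IL-13 and 5.89, 6.23 and 5.75 in control.

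The share of calls among interferon-stimulated genes was near that of all tested genes, while their median was higher. Some constitutive proteasome subunits gave small rises. Of 15 tested interferon-stimulated genes 1 rose (6.67%), IRF9, a DNA-binding factor of the interferon response. It was at 200.2, 187 and 136 with IL-13 and 110.1, 118 and 133 in control, a rise of 0.55 ± 0.14 (adjusted p = 0.0223). IL-13 array c was only just above the highest control array. The call was lost without IL-13 array a (0.46) or b (0.50) or control array a (0.48). ISG15 stood at 0.42 ± 0.19 and OASL at -0.37 ± 0.26. The list had its median at 0.28, beside 0.0016 for all tested genes, and 10 of its 15 tested members stood above 0. NMI, a partner of STAT proteins that was named after its values were seen, rose by 0.62 ± 0.12 (213, 208 and 230.1 against 132, 159 and 137). Of 27 tested constitutive proteasome subunits 4 rose (14.8%, beside 3.94% of all tested genes), PSMA2, PSMB7, PSMC2 and PSMD8, by 0.28 to 0.30, and none fell. Of the 27 genes 23 stood above 0, and the median was 0.16. Without IL-13 array a or c or control array a or c none of the 4 kept a call, and without IL-13 array b 1 gene of the list was called.

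Some respiratory chain genes rose, by small amounts. The chain is the set of inner mitochondrial membrane complexes that pass electrons to oxygen, and ATP synthase, complex V, uses the resulting proton gradient. Of 40 tested genes 11 rose (27.5%, beside 3.94% of all tested genes), none fell, and 37 stood above 0. The median of the list was 0.27, beside 0.0016 for all tested genes. It was 0.36 with the values scaled as deposited, 0.41 with scaling on the tested genes and 0.58 with scaling on all probe sets, where the median of all tested genes was 0.17. The count was 16, 21 and 33 under these scalings. It was 8 without IL-13 array a, 5 without IL-13 array c, 6 without control array a and 5 without control array c.

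By complex, 5 of 19 tested genes of complex I rose, 0 of 3 of complex II, 2 of 4 of complex III, 4 of 10 of complex IV and 0 of 4 of complex V by limma's adjusted p. At an unadjusted p under 0.05 it was 0 of 3 in complex II and 1 of 4 in complex V. The complex medians ran from 0.18 in complex V to 0.33 in complex III. COX6A1, a subunit of cytochrome c oxidase, was at 4131, 4304 and 3610.4 with IL-13 and 2742, 2801 and 2947 in control. It rose by 0.47 ± 0.07 (1.38-fold, adjusted p = 0.00127). COX7C, of the same complex, was at 511, 518 and 590.1 with IL-13 and 320.1, 378 and 343 in control, a rise of 0.57 ± 0.12 (adjusted p = 0.00709). NDUFB5, an accessory subunit of complex I, was at 441, 433 and 519 with IL-13 and 258, 285 and 310.2 in control, a rise of 0.65 ± 0.13 (1.57-fold, adjusted p = 0.00709). The groups did not overlap for any of the 3, and all 3 kept their calls in every setting. NDUFS1, the largest subunit of complex I, rose by 0.67 ± 0.15 and lost its call without IL-13 array c (0.60) or control array c (0.53). UQCRC1 (0.44 ± 0.11) and UQCRQ (0.39 ± 0.10) of complex III, named after their values were seen, both lost their calls without IL-13 array a (0.33 and 0.41) or control array a (0.44 and 0.29). UQCRC1 also lost it without control array c (0.45) and UQCRQ without IL-13 array c (0.33). COX5A stood at -0.11 and COX7A2 at -0.02, and neither passed.

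NDUFA7, another subunit of complex I, was not on the list and entered as one of the 20 largest rises. Its signals were 203, 234 and 221 with IL-13 and 114, 92.2 and 111 in control. It rose by 1.02 ± 0.16 (2.03-fold, adjusted p = 0.00106), more than any tested member of the list. Mitochondrial genes named after their values were seen and not on the list gave further rises: ATP5PD of ATP synthase by 0.34 ± 0.07, PDHX of the pyruvate dehydrogenase complex by 0.65 ± 0.13, and SUCLG1 of the citric acid cycle by 0.52 ± 0.09, each with its call in every setting. PDHA1 of the pyruvate dehydrogenase complex (0.32 ± 0.08), IDH3B of the citric acid cycle (0.54 ± 0.14) and the malic enzyme ME2 (0.33 ± 0.09) rose as well. They lost their calls with the mean of their probe sets (0.15, 0.24 and 0.07) and without IL-13 array a (0.32, 0.41 and 0.36), IL-13 array c (0.34, 0.51 and 0.33) or control array c (0.31, 0.54 and 0.34). PDHA1 and ME2 lost them also without IL-13 array b (0.29 and 0.30) or control array b (0.27 and 0.31), and IDH3B and ME2 without control array a (0.44 and 0.34). For COX6A1 the mean signal was 3581 ± 264 at 0 h and 2829.9 ± 105 in the 24 h control, and in IL-13 cells 3425 ± 250.1 at 4 h, 3459 ± 257 at 12 h and 4015 ± 361 at 24 h (SD, n = 3 arrays each). The 24 h control thus had the lowest of the 5 group means for this gene.

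**Figure D3:**
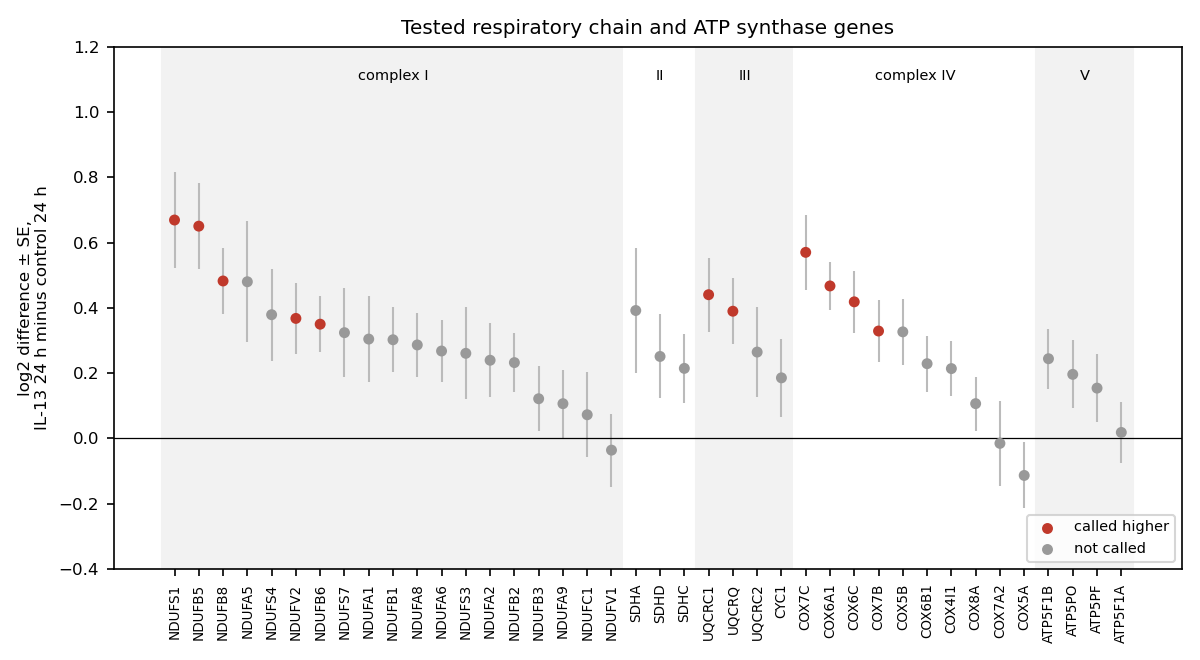
Difference between IL-13 24 h and control 24 h ± SE (log2 scale) for the 40 tested respiratory chain and ATP synthase genes, ordered by complex and size, with called genes in red and the others in grey. Only 3 genes lay below 0, and the largest difference was that of NDUFS1 at 0.67.

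NF-kB and chemokine genes moved in both directions. Of 22 tested members 3 rose and 1 fell (18.2% called), and the median was -0.05 (0.16 with scaling on all probe sets). TNFAIP6, a hyaluronan-binding protein released in inflammation, was at 100.1, 115 and 101 with IL-13 and 53.6, 60.9 and 58.8 in control. It rose by 0.85 ± 0.17 (1.80-fold, adjusted p = 0.00557) with no overlap, and its other probe set stood at 0.72. The monocyte chemokine CCL2 was at 123, 95.7 and 134 with IL-13 and 69.1, 84.6 and 35.5 in control. The groups were close on array b, and CCL2 rose by 0.90 ± 0.21 (adjusted p = 0.0149). TNIP1, an inhibitor of NF-kB signalling, rose by 0.67 ± 0.17 (adjusted p = 0.0253). CCL2 lost its call without IL-13 array a (0.86) or c (0.81) or control array c (0.61). TNIP1 lost it without IL-13 array a (0.57) or c (0.68) or control array a (0.64) or c (0.53).

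RELA, the transactivating subunit of NF-kB, was at 276, 251 and 255 with IL-13 and at 399, 395 and 475 in control. It fell by 0.69 ± 0.13 (1.61-fold, adjusted p = 0.00402) without overlap, but its other probe set stood at 0.01. NFKBIA (-0.04 ± 0.13), a rapid target of NF-kB, and the chemokine CXCL1 (-0.11 ± 0.19) did not pass. In the prostaglandin list 1 of 13 rose and 1 fell. HPGD, which inactivates prostaglandins, was at 647, 589 and 721 with IL-13 and 439, 482 and 374 in control, a rise of 0.53 ± 0.11 (adjusted p = 0.00760) that held in every setting. PTGS2, which makes them, was at 138, 142 and 118 with IL-13 and 219, 214 and 226 in control. It fell by 0.61 ± 0.17 (adjusted p = 0.0379). Although the arrays did not overlap, PTGS2 lost its call with any 1 of the 6 arrays left out, at -0.64 to -0.55, and with scaling on all probe sets (-0.45).

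Of 24 tested genes of EGF receptor signalling 2 rose and 1 fell. Of the 24 genes 17 stood below 0, and the median was -0.18 (0.005 with scaling on all probe sets). NRG1, a ligand of the ERBB receptors, was at 1050.0, 1014 and 975 with IL-13 and 548, 560.4 and 600.1 in control. The groups lay far apart on this probe set, with a rise of 0.72 ± 0.12 (1.64-fold, adjusted p = 0.00194), while its 5 other probe sets ran from -0.53 to 0.36 and the call was lost with the mean of the probe sets (0.12). The AP-1 factor FOSL2 rose by 0.62 ± 0.17 and its relative JUND fell by 0.47 ± 0.12. Their other probe sets stood at 0.63 and 0.32 for FOSL2 and at -0.17 and 0.01 for JUND. With the mean of the probe sets both calls were lost (0.53 and -0.21). FOSL2 lost its call without IL-13 array a (0.64) or c (0.56) or control array c (0.41), and JUND without IL-13 array a (-0.48) or c (-0.40) or control array a (-0.34) or c (-0.45) and under each other scaling (-0.35 as deposited, -0.12 on all probe sets and -0.30 on the tested genes). IL6ST, the shared signal chain of the IL-6 family receptors, named after its values were seen, was at 1030.1, 984 and 1269.9 with IL-13 and 675, 645 and 597 in control. It rose by 0.66 ± 0.12 (1.58-fold, adjusted p = 0.00460), and its 4 other probe sets stood at 0.15 to 0.60. The call was lost with the mean of its probe sets (0.40).

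Genes of lipid control moved one by one. PPARG, a nuclear receptor for fatty acids and their oxidized products, was at 184, 202 and 198 with IL-13 and 122, 95.3 and 102 in control. It rose by 0.87 ± 0.14 (1.83-fold, adjusted p = 0.00155) without overlap. INSIG1, which holds the sterol sensor in the endoplasmic reticulum, was at 124, 199.995 and 155 with IL-13 and 104, 82.1 and 83.4 in control, a rise of 0.82 ± 0.15 (1.77-fold, adjusted p = 0.00271). It was the 1 called gene of 20 tested cholesterol genes. ANGPTL4, a lipase inhibitor and target of PPAR receptors, rose by 0.86 ± 0.22 (177, 108 and 132 against 54.8, 93.6 and 76.7). ANGPTL4 lost its call without IL-13 array a (0.70) or c (0.87) or control array a (0.69) or c (0.86). Of 21 tested fatty acid genes 2 rose, PPARG and the elongase ELOVL5 (0.34 ± 0.10), and 2 fell, ACLY (-0.37 ± 0.10), which makes acetyl-CoA in the cytosol, and the desaturase SCD5 (-1.23 ± 0.36). ELOVL5, ACLY and SCD5 each lost the call without any 1 of IL-13 array a (0.34, -0.36 and -1.04), control array a (0.35, -0.39 and -1.24) and control array c (0.26, -0.39 and -1.0035). Without IL-13 array b ELOVL5 (0.37) and ACLY (-0.27) lost it too, without IL-13 array c ELOVL5 (0.32) and SCD5 (-0.89), and without control array b ACLY (-0.33). ACLY lost its call under each other scaling too (-0.28 as deposited, -0.05 on all probe sets and -0.23 on the tested genes), and ELOVL5 with the mean of its probe sets (0.10). Heme oxygenase HMOX1 was at 932, 869 and 855 with IL-13 and 575, 507 and 658 in control, a rise of 0.53 ± 0.11 (adjusted p = 0.00761). It was the 1 member of the NRF2 and xenobiotic list of 28 that rose. The detoxifying dehydrogenase ALDH3A1 was at 1662, 1167 and 1645 with IL-13 and 1816, 1983 and 2025 in control, and fell by 0.56 ± 0.10. The export pump ABCC1 fell by 0.48 ± 0.10 and CYP24A1, which degrades vitamin D, by 0.52 ± 0.12. ALDH3A1, ABCC1 and CYP24A1 all lost their calls with scaling on all probe sets (-0.16, -0.15 and -0.19) and on the tested genes (-0.34, -0.32 and -0.37), and CYP24A1 also without control array a (-0.48).

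Among the falls the insulin and IGF axis stood out by named genes and not by its median. Insulin and IGF receptors signal through the adaptors IRS1 and IRS2. IRS2 was at 249, 222 and 140.4 with IL-13 and at 365, 399 and 436 in control. No IL-13 array reached the control range, and IRS2 fell by 0.95 ± 0.15 (1.94-fold, adjusted p = 0.00102), with its other probe set at -0.87. IGF1R, the receptor for IGF1, was at 374, 321 and 232 with IL-13 and 491, 674 and 674 in control, a fall of 1.01 ± 0.24 (adjusted p = 0.0196), with its other probe sets at -0.68 and 0.08. The binding protein IGFBP3 fell by 0.63 ± 0.15 (669.9, 542 and 578 against 759, 918 and 936), and the adaptor GRB10 by 0.36 ± 0.09. These were 4 of 18 tested members (22.2%, beside 3.07% of all tested genes), none rose, and the median was -0.01 (0.06 with scaling on all probe sets). The adaptor IRS1 stood at -0.06 ± 0.13. IGF1R and IGFBP3 lost their calls without IL-13 array c (-0.84 and -0.60) or control array c (-0.92 and -0.56). GRB10 lost it without IL-13 array a (-0.36) or c (-0.34) or control array a (-0.35) or c (-0.33), and without either array c 1 gene of the list was called. With scaling on all probe sets IGFBP3 (-0.31) and GRB10 (-0.07) lost their calls, GRB10 also as deposited (-0.29) and with scaling on the tested genes (-0.24), so that 2 of the 4 were called under every scaling.

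Matrix genes fell more often than they rose. Of 29 tested collagens, proteoglycans and matrix glycoproteins 7 fell (24.1%, beside 3.07% of all tested genes) and 1 rose, and the median was below 0 under each scaling, from -0.30 to -0.10. VCAN, a large proteoglycan, was at 226, 247 and 205 with IL-13 and 519, 466 and 509 in control. It fell by 1.12 ± 0.13 (2.17-fold, adjusted p = 5.62e-05), and no arrays overlapped. The laminin chain LAMA5 of basement membranes was at 191, 228 and 229 with IL-13 and 425, 346 and 379 in control, a fall of 0.78 ± 0.12 (1.72-fold, adjusted p = 0.000637). LAMC1, a further laminin chain, was at 355, 334 and 339 with IL-13 and 485, 472 and 467 in control and fell by 0.50 ± 0.11 (adjusted p = 0.00894). LAMC1 lost its call with scaling on all probe sets (-0.23).

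The collagen gene COL1A1 was at 75.2, 93.4 and 48.6 with IL-13 and 149, 159.8 and 137 in control. It fell by 0.78 ± 0.15 (adjusted p = 0.00495), a call lost with the mean of its probe sets (-0.38). COL1A1 is also on the fibroblast marker list, whose summed signal was lower with IL-13 as given above, and the part of other cells in this fall was not tested. Fibronectin (FN1) fell by 0.66 ± 0.14, syndecan SDC1 by 0.40 ± 0.09 and agrin (AGRN) by 0.56 ± 0.15, SDC1 and AGRN being named after their values were seen. FN1 (-0.54) and SDC1 (-0.32) lost their calls without IL-13 array c, as AGRN, whose groups overlapped, did (-0.43) and also without IL-13 array a (-0.57) or control array a (-0.45) or c (-0.49). With scaling on all probe sets FN1 (-0.28), SDC1 (-0.07) and AGRN (-0.30) lost their calls. FN1 (-0.45) and SDC1 (-0.24) also lost them with scaling on the tested genes, SDC1 with the values scaled as deposited (-0.29), and AGRN with the mean of its probe sets (-0.24). Without IL-13 array c 5 genes of the list were called, and 4 were called under every scaling. These 4 were the falls of VCAN, LAMA5 and COL1A1 and the rise of FBN2. The microfibril gene FBN2, at 439, 427 and 380.3 with IL-13 and 274, 315 and 259.6 in control, rose by 0.52 ± 0.11, with its other probe set at 0.03 and its call lost with the mean of its probe sets (0.27).

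Genes of the Wnt pathway, in which secreted ligands act on beta-catenin and the TCF factors, moved both ways. Of 16 tested, 4 fell and 2 rose (37.5% called, beside 7% of all tested genes). TLE1, a corepressor of TCF factors, was at 360.4, 311 and 304 with IL-13 and 547, 582 and 554 in control. It fell by 0.83 ± 0.10 (1.78-fold, adjusted p = 5.62e-05), with its other probe sets at -0.64 and -0.53. TCF7L2, a TCF factor, was at 407, 329.6 and 342 with IL-13 and 497, 536 and 517 in control, a fall of 0.57 ± 0.11 (adjusted p = 0.00495). TCF7L2 lost its call with scaling on all probe sets (-0.28) and with the mean of its probe sets (-0.36). The secreted Wnt inhibitor SFRP1 was at 389.8, 368 and 395 with IL-13 and 232, 240.2 and 199 in control. It rose by 0.75 ± 0.10 (1.68-fold, adjusted p = 0.000145), and its other probe sets stood at 0.48 and 0.53. The groups did not overlap for any of these 3 genes. The secreted inhibitor DKK1 fell by 0.50 ± 0.11 and lost its call without control array c (-0.45). DKK3 rose by 0.70 ± 0.17, while its other probe sets, all below the filter, ran from -0.27 to 0.24. It lost its call without IL-13 array c (0.55) or control array c (0.57). The receptor FZD2 fell by 0.53 ± 0.14 and lost it without IL-13 array a (-0.49) or b (-0.50) or control array a (-0.55) or c (-0.52). DKK1 and FZD2 also lost their calls with scaling on all probe sets (-0.19 and -0.28) and on the tested genes (-0.37 and -0.45). Without control array c 3 genes of the list were called. Under every scaling 3 were called, the fall of TLE1 and the rises of SFRP1 and DKK3.

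Transcription factors of lung development gave 1 rise, that of MSX1, and 2 falls among 16 tested. SOX4, which is expressed in progenitor cells, was at 464, 513 and 500.1 with IL-13 and 822, 790.1 and 786 in control. It fell by 0.76 ± 0.10 (1.69-fold, adjusted p = 0.000145), while its 4 other probe sets ran from -0.80 to 0.10. SOX9, a factor of the distal lung tips, was at 191, 236 and 164 with IL-13 and 361, 266 and 356 in control. It fell by 0.69 ± 0.13 (1.61-fold, adjusted p = 0.00482), with its other probe set at -0.88. Neither gene had arrays that overlapped. ZFP36L2, which directs the decay of messenger RNA, was at 244, 193 and 206 with IL-13 and 368, 427 and 375 in control, a fall of 0.82 ± 0.12 (1.77-fold, adjusted p = 0.000433).

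Some genes of the cell cycle fell. Of 49 tested mitotic genes 10 fell (20.4%, beside 3.07% of all tested genes), none rose, and 44 stood below 0. MKI67, the marker of cycling cells, was at 266, 301 and 286 with IL-13 and 455, 442 and 447 in control. It fell by 0.66 ± 0.11 (1.58-fold, adjusted p = 0.00212) and kept its call in every setting. The spindle factor TPX2 was at 431, 619 and 515 with IL-13 and 703, 794 and 675 in control, without overlap, and fell by 0.55 ± 0.11. The ubiquitin-conjugating enzyme UBE2C fell by 0.47 ± 0.09 and FOXM1, which switches on mitotic genes, by 0.61 ± 0.14, a call lost without IL-13 array c (-0.44). The median of the mitotic list was -0.28, and -0.03 with scaling on all probe sets, where all tested genes had a median of 0.17 and 1 gene of the list was called. The count was 5 without IL-13 array a, 5 without IL-13 array c, 6 without control array b and 6 without control array c. TPX2 (-0.25), UBE2C (-0.15) and FOXM1 (-0.39) too lost their calls with that scaling, and UBE2C also with scaling on the tested genes (-0.33). In RNA from a whole culture, fewer cells in division and less of these RNAs per cell cannot be told apart.

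Of 43 tested DNA replication genes 5 fell (11.6%) and none rose. The median was -0.13, and it turned to 0.06 with scaling on all probe sets. MCM10, an initiation factor, was at 59.9, 129 and 141 with IL-13 and 244, 259 and 221 in control. IL-13 array a was lowest, the groups did not overlap, and MCM10 fell by 1.02 ± 0.18 (2.02-fold, adjusted p = 0.00326). MCM2, of the replicative helicase, was at 203, 263 and 269 with IL-13 and 391.7, 447 and 348 in control, and fell by 0.68 ± 0.14 (adjusted p = 0.00707). Thymidylate synthase (TYMS) was at 1102, 1330.2 and 1232 with IL-13 and 1575, 1702 and 1685 in control, a fall of 0.60 ± 0.09 (adjusted p = 0.00102), and with scaling on all probe sets TYMS (-0.21) and MCM2 (-0.44) lost their calls, as TYMS did with the mean of its probe sets (-0.43). Of the list 3 genes were called without IL-13 array a, without IL-13 array c, without control array a and without control array b.

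Of the genes known to respond to IL-13 in airway epithelium, 9 of 29 with a probe set were bright enough to test, 2 of them rose and 1 fell, and the list had its median at 0.0074 (-0.03 with the values scaled as deposited). Beside CISH, the transglutaminase TGM2 was higher, at 1550.4, 1297 and 1526 with IL-13 and 878, 902 and 1003 in control. On the probe set used it rose by 0.52 ± 0.10 (1.44-fold, adjusted p = 0.00495), while its 3 other probe sets ran from -0.92 to 1.23. Those at 1.23 and 0.88 passed when each probe set was tested on its own. The set at -0.92 was below the filter, with mean signals of 20.2 with IL-13 and 71.4 in control. The mucin gene MUC5AC was at 64.2, 107 and 55.7 with IL-13 and 186, 142 and 191 in control. On this probe set it fell by 0.94 ± 0.24 (adjusted p = 0.0246) and lost its call without IL-13 array a (-0.88) or c (-0.81) or control array a (-0.90) or c (-0.86). Its other probe sets ran from -0.13 to 0.57 and were all below the filter. The set at 0.57 had mean signals of 16.6 with IL-13 and 5.56 in control. Its unadjusted limma p was 0.00258, beside 0.00245 for the set used, so the probe sets differed in direction. The goblet cell factor SPDEF (-0.44 ± 0.28), the secreted protein CLCA1 (0.19 ± 0.23) and AGR2 (0.01 ± 0.14), which folds mucins, did not pass. CCL26, the eotaxin known to respond to IL-13, was not analysed here.

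Of the cytosolic ribosomal proteins 2 of 42 rose (4.76%), RPL30 (0.26 ± 0.05) and RPS10 (0.29 ± 0.06), both calls being lost as deposited (0.12 and 0.12) and with scaling on the tested genes (0.17 and 0.17). Of the actin genes 1 of 29 rose, CORO1C (0.34 ± 0.10), a call lost without any 1 of 5 arrays (0.31 to 0.36), all but control array b. Of the ATF4 list 1 of 29 fell, the amino acid transporter chain SLC3A2 (-0.46 ± 0.12), a call lost without IL-13 array b (-0.35) or c (-0.45) or control array a (-0.40) or c (-0.49) and under each other scaling (-0.32 as deposited, -0.10 on all probe sets and -0.27 on the tested genes). Of the glucocorticoid list 4 of 9 were called (44.4%, beside 7% of all tested genes), of which ANGPTL4 rose and 3 fell, the metallothioneins MT1X (-0.52 ± 0.13) and MT2A (-0.50 ± 0.13) and the receptor NR3C1 (-0.34 ± 0.09). No gene of that list was called without IL-13 array a or c or control array c, and MT1X (-0.21), MT2A (-0.12) and NR3C1 (-0.04) lost their calls with scaling on all probe sets, as they did as deposited (-0.43, -0.35 and -0.26) and on the tested genes (-0.38, -0.30 and -0.21). Other probe sets of NR3C1 at -0.56 and -0.52 passed when each was tested on its own, and the one at -0.11 did not. Of the splicing regulators 1 rose and 3 fell among 24. The 3 that fell, HNRNPD (-0.41 ± 0.11), HNRNPH1 (-0.50 ± 0.12) and KHDRBS1 (-0.37 ± 0.09), each lost the call without IL-13 array c (-0.38, -0.46 and -0.35). HNRNPD and KHDRBS1 also lost it without IL-13 array b (-0.41 and -0.32), HNRNPH1 without IL-13 array a (-0.48) or control array c (-0.49), HNRNPD and HNRNPH1 without control array a (-0.37 and -0.47) and HNRNPD without control array b (-0.39). All 3 lost their calls under each other scaling, at -0.32, -0.40 and -0.28 as deposited, -0.10, -0.17 and -0.06 on all probe sets and -0.27, -0.35 and -0.23 on the tested genes, and with the mean of their probe sets (-0.12, -0.11 and -0.29). The riser was MBNL2, at 312, 329.9 and 380.0 with IL-13 and 137, 165 and 101 in control, a rise of 1.30 ± 0.16 (2.47-fold, adjusted p = 8.57e-05) with its other probe sets at 0.64 and 0.75. The epithelial keratin KRT8 was at 6087, 5109.9 and 5705 with IL-13 and 3871, 4437 and 4392 in control and rose by 0.40 ± 0.07 (adjusted p = 0.00380). CD44, the hyaluronan receptor, was at 1407, 1195 and 1405 with IL-13 and 776, 907 and 897 in control and rose by 0.51 ± 0.09, while its 7 other probe sets ran from -0.60 to 0.97. Those at 0.51, 0.56, 0.95 and 0.97 passed when each probe set was tested on its own, and the one at -0.08 did not. The sets at -0.60 and 0.13 were below the filter, the former with mean signals of 6.66 with IL-13 and 24.9 in control.

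**Figure D4:**
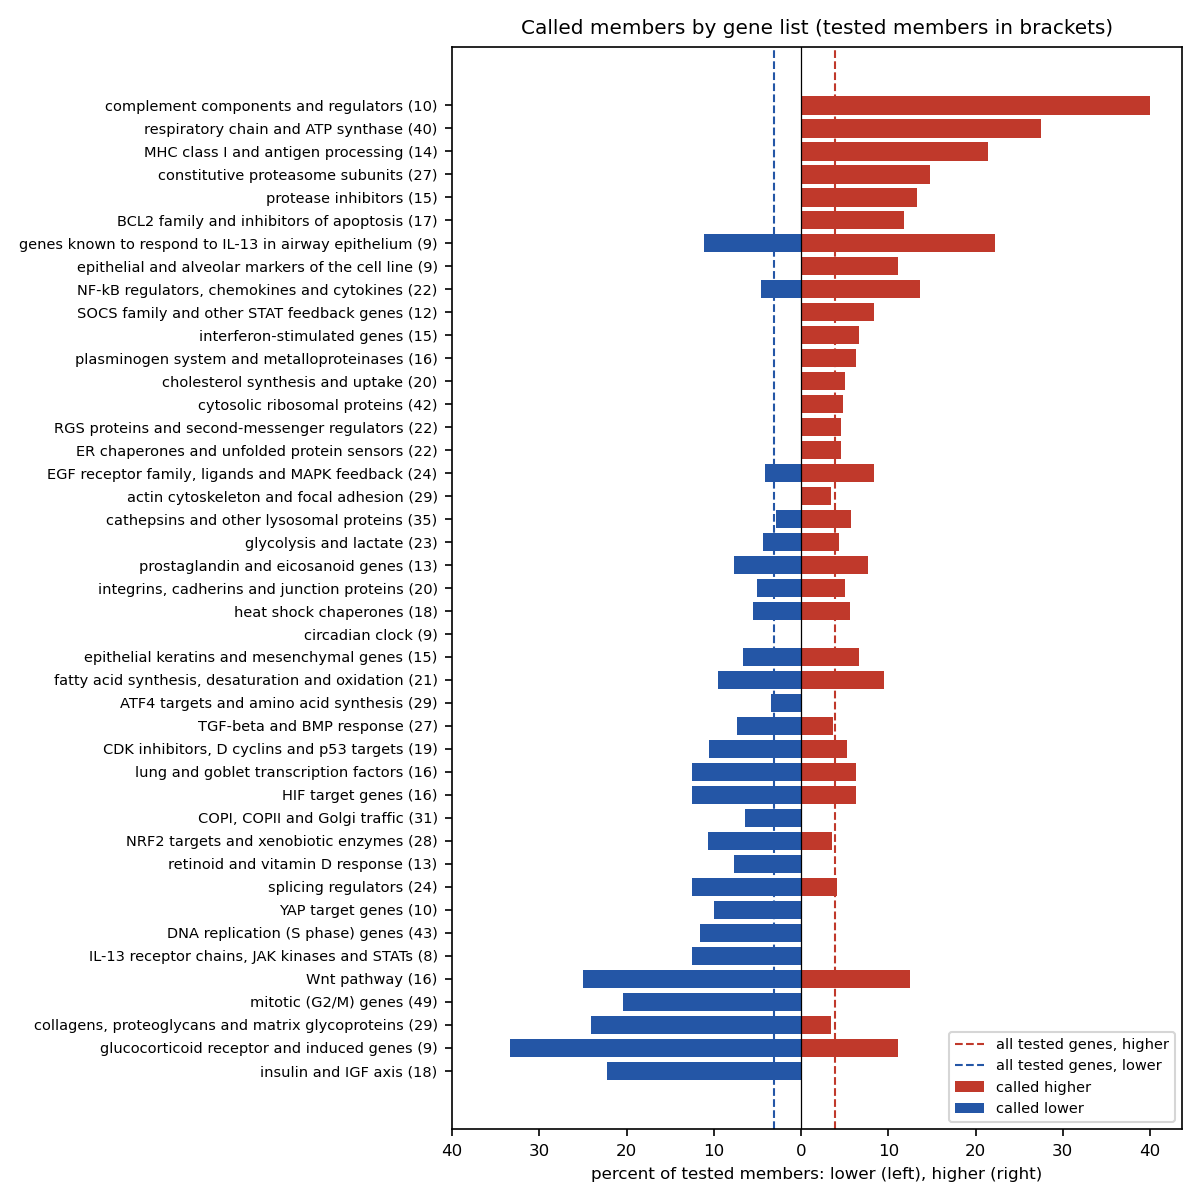
Percent of tested members called lower (left, blue) and higher (right, red) in each gene list with 8 or more tested members, marker lists of other cell types left out, with the tested number in brackets and dashed lines at 3.07% lower and 3.94% higher for all tested genes. Complement genes had the largest share of rises (40%) and the glucocorticoid list the largest share of falls (33.3%), the latter from 3 of 9 genes.

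Of the 10 lists in the plot of list medians, complement, MHC class I, interferon, proteasome and respiratory chain genes had medians above 0 under all 4 scalings, and matrix, mitotic, TGF-beta and Wnt genes had medians below 0. With scaling on all probe sets the medians of these lower lists lay between -0.10 and -0.03, where the median of all tested genes stood at 0.17. The median of DNA replication changed sign with the scaling, and the list is given no direction.

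**Figure D5:**
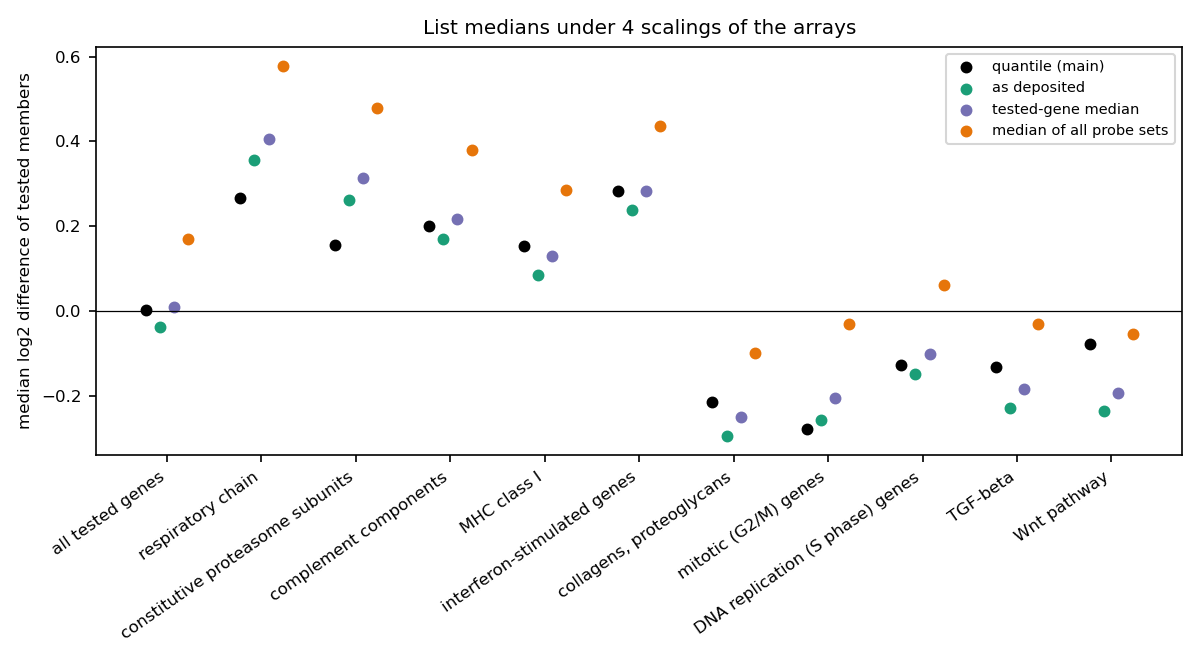
Median difference between IL-13 24 h and control 24 h (log2 scale) over the tested members of each list under 4 scalings of the arrays, with all tested genes at the far left. The lists shown moved up with scaling on the median of all probe sets, the respiratory chain from 0.27 to 0.58, and DNA replication crossed 0.

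The earlier times place these differences beside the level at 0 h, as a description without a test, since no untreated arrays of 4 h or 12 h are labelled. CISH had a mean signal of 78.4 ± 20.4 at 0 h and with IL-13 of 249 ± 16.1 at 4 h, 223 ± 39.6 at 12 h and 225 ± 11.9 at 24 h (SD, n = 3 arrays each). MSX1 stood at 92.2 ± 12.2 at 0 h and at 188 ± 16.7, 164 ± 13.7 and 226 ± 10.1 in that order. Both were thus already high at 4 h. CTSL stood at 818 ± 45.3, 1081 ± 123, 1614 ± 316 and 2182 ± 259, and C3 at 49.5 ± 27.0, 74.9 ± 12.8, 127 ± 36.3 and 217 ± 13.2. For these genes each later time had the higher mean. PSMB9 (139.7 ± 10.6, 138 ± 6.93, 153 ± 9.21 and 204 ± 7.96) and B2M (1981 ± 71.4, 2030.0 ± 59.4, 2376 ± 226 and 3069.5 ± 28.4) were highest at 24 h. The 24 h control means were 108 for CISH, 97.8 for MSX1, 775 for CTSL, 78.8 for C3, 106 for PSMB9 and 1717 for B2M. Those of CTSL, PSMB9 and B2M thus lay below the means at 0 h, and those of CISH, MSX1 and C3 above.

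The 24 h control also differed from 0 h in the genes that follow. SOX4 was at 666 ± 63.7 at 0 h and 799.6 ± 19.9 in the 24 h control, beside IL-13 means of 434 ± 48.4 at 4 h, 487 ± 4.34 at 12 h and 492 ± 25.2 at 24 h. PTGS2 was at 79.9 ± 19.4 at 0 h and 219.9 ± 6.19 in the 24 h control, beside 132 ± 13.04 after 24 h of IL-13, so that it was lower than the control of its own time and higher than the cells at 0 h. CCL2 and the transcription factor USF2 went the opposite way: CCL2 was at 149 ± 15.1 at 0 h, 63.1 ± 25.1 in the 24 h control and 118 ± 19.6 with IL-13, and USF2 at 292 ± 57.9, 88.6 ± 11.3 and 183 ± 22.7. USF2 was called higher at 24 h, by 1.02 ± 0.18 (adjusted p = 0.00241), and yet its mean with IL-13 lay below that of the cells at 0 h.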

How the data were processed

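Per the labels, the 15 arrays (Affymetrix, human) hold A549 RNA in 5 groups of 3. The deposited values are signal intensity per probe set on a linear scale (22283 probe sets). The sources used here do not give the authors' software; each array's mean after trimming 2% at each end was 150.04 to 150.06. A pseudocount of 20 was added, log2 taken and the arrays quantile normalized, since their medians differed by up to 0.27 log2 (tolerance 0.1). Of the probe sets 68 were controls, 19065 had a single symbol, 1043 several and 2107 none. Symbols came from the platform annotation, and 19053 were matched through the Entrez identifier. Each of 11963 genes was represented by its brightest probe set, with cross-hybridizing _x_at sets only where there was no other (of the genes in the text CISH, USF2, KRT8, FOXM1, MT1X, MT2A and RPS10). Genes with a mean above 6.33, the 50th percentile of probe sets, were tested.

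Groups were fitted with limma 3.58.1 in R 4.3.3, with 1 mean per group over 15 arrays (10 residual degrees of freedom), two-sided tests, a trend of the variance with the mean, and p-values adjusted over 6884 genes by Benjamini-Hochberg (threshold 0.05). Fold changes on this scale understate changes of dim genes. Precision is limited by 3 arrays per group. No scanner files or detection calls were used. The 47 gene lists and the comparison were chosen with earlier results of these data known, as were the alternatives. Genes were named from the 20 largest rises and 20 largest falls among called genes whose groups did not overlap, up to 6 called members of each list by smallest p (or the 1 with the smallest p), and a set of IL-13 pathway genes, and the text leaves some out; for genes outside this rule the text says that their values were known when they were chosen, or they stand as list members that did not pass. Alternatives were other scalings, pseudocounts (1 and 62), filters and probe set choices, other model settings, leaving out each array and a block for the letter. Promoter sequences are from RefSeq, and 5744 of 6884 tested genes matched one.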

Additional observations from a re-analysis of the deposited data

Results flagged for a closer look

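A signal outside the gene tests came from probe sets that name several genes or none, which entered no comparison. When each probe set was tested on its own, 81 of these passed. They were 34 of 535 tested probe sets with several symbols (6.36%, 16 higher and 18 lower) and 47 of 722 with no symbol (6.51%, 19 higher and 28 lower). Of 9850 tested probe sets with a single symbol 630 passed (6.4%), so the shares lay close to each other. The difference with the largest size among those with no symbol was -1.11. Among those with several symbols it was -1.16, for a set that names HSPA1A and HSPA1B.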

How the results depend on the processing

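The count of 482 genes (271 higher, 211 lower) was 1236 (1180 and 56) with scaling on the median of all probe sets and 243 (143 and 100) with only the 6 arrays in the model. With scaling on the tested-gene median 439 genes were higher, with no filter 138 were lower, and with every probe set as its own test 325 were lower. Leaving out 1 array gave 194 to 539 genes, 113 to 304 higher and 81 to 235 lower. In the 8 settings beside these that left in all arrays the count stayed within 1.5 times, at 350 with no variance trend to 538 with the values scaled as deposited, and of the 482 genes 384 were called with that scaling. The letters did not pair the arrays (correlations of deviations 0.11, -0.16 and -0.22 for a, b and c), and 390 genes were called with the replicate block. Among single genes with a call 2 turned: SMAD3 stood at 0.0883 with the mean of its probe sets and HSP90AB1 at 0.0106 with scaling on all probe sets. Over all named genes 2627 values kept the call or its absence, 643 lost the call, 2 gained it and 2 turned, and the cause was not tested. A change of sign in a gene without a call in either fit was counted as kept. With 3 arrays per group and no detection calls, small differences of dim genes are the least certain.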
